A study of Mus musculus with 4 samples.

Results

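Scavenger receptors and products of alternative activation were followed in mononuclear phagocytes of KPC tumors, grown from a transplanted mouse pancreatic tumor line. The 9 genes (Mrc1, Cd163, Msr1, Stab1, Folr2, Lyve1, Retnla, Chil3 and Ear2) were taken from 33696 annotated features. They were chosen by name with earlier results of these data known, so their levels are given as a description. Subcutaneous KPC tumors of C57BL/6 mice were left untreated, or received the STING agonist ADU-S100 once into the tumor, the agonistic anti-LTβR antibody 4H8 repeatedly into the peritoneum, or the combination of both. Live CD45+ leukocytes sorted from pooled resected tumors gave 1 single-cell 5′ RNA library per group. With 1 library per group there is no replicate spread and no test, and every interval below covers counting error only.

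Macrophages take up modified lipoproteins, glycoproteins and spent matrix through scavenger receptors, a loose family of surface proteins with unlike structures. Resident tissue macrophages typically carry several of them together with growth factor and complement genes. Macrophages exposed to IL-4 or IL-13 are said to be alternatively activated, and in mice such cells classically express Mrc1, Retnla and Chil3. Chil3 is also known from granulocyte precursors and monocytes, and Ear2 belongs to a mouse family of ribonucleases first found in eosinophils.

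The matrices held 8730 untreated, 15404 STING agonist, 14634 LTβR agonist and 16322 combination cells, with median depths from 2157.5 to 4712.0 UMIs (unique molecular identifiers, counts of distinct mRNA molecules) per cell. After filters on genes, mitochondrial share and doublets, 7524, 13444, 13223 and 14667 cells remained. Macrophages and monocytes numbered 3982, 5523, 7332 and 8403, and dendritic cells 677, 493, 739 and 744. Their depth was unequal, with a median of 2805.0 UMIs per macrophage or monocyte in the combination and 7095.0 with the STING agonist. Pairs of libraries shared between 34 and 83 cell barcodes. Levels are in CPM, the usual scaling of a gene's UMIs to the total UMIs of the cells summed. Cells were clustered without the 9 genes, and a cluster carries a name ending in "-like" only where at least 3 fixed markers passed. The other clusters are given by number and leading genes. Clusters 2 and 10 are also given by number, although they passed 4 and 10 of 10 Arg1 macrophage markers.

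Retnla, encoding the secreted protein RELMα, and the ribonuclease gene Ear2 both peaked in the same small cluster, and their upstream sequences are shown for that reason. RefSeq (GRCm38.p6) held promoter entries for 7 of the 9 genes. The 250 bases before the start of Retnla lie on the plus strand at chr16:48842359-48842608, and those of Ear2 on the plus strand at chr14:44102404-44102653. Capitals mark matches, on either strand, to 5 letter patterns. The STAT-type pattern is TTC and GAA with 4 free bases between them. The pattern of PU.1, a factor that myeloid cells depend on, is GAGGAAG. For C/EBP factors, which act in monocytes and granulocytes, TTGCNNAA was searched. The half-site of MAF factors, known from resident macrophages, is TGCTGAC. The last of the patterns, at which transcription can be positioned, is the TATA box TATAAAA.
Retnla: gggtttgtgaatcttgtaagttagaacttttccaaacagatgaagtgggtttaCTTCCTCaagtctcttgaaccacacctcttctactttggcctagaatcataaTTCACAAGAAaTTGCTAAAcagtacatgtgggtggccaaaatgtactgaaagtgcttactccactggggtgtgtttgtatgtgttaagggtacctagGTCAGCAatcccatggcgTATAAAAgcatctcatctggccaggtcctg
Ear2: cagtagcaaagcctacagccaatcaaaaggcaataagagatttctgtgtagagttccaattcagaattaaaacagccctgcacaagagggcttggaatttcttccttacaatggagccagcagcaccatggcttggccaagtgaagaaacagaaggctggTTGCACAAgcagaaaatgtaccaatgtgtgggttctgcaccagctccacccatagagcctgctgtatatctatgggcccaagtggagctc

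The Retnla stretch held a match to each of the 5 patterns, and no matches overlapped. Its STAT-type match, TTCACAAGAA, began 145 bases before the RefSeq start, and the C/EBP-type match TTGCTAAA began 134 bases before it. Ear2 held the C/EBP-type pattern, TTGCACAA, 90 bases before its start. Of 32851 mouse promoters of this length, 5.85% held the STAT-type pattern, 10.6% the PU.1 pattern, 9.56% the C/EBP pattern, 3.81% the MAF half-site and 4.98% the TATA pattern. Such matches describe letters and not binding. Ear2 has close relatives, and 23.4% of 90-base windows in its first 500 transcript bases also occurred in Ear1, Ear10 or 2 pseudogenes, so reads could be split among them. For Chil3 the share was 1.41%, all with Chil4, and for the other 7 genes it was 0.

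Retnla was concentrated in cluster 16, a group of 529 cells without a name whose leading genes other than Retnla and Ear2 were Lyz1, Cd226 and Lpl. Within it, the Retnla level was 5225 CPM untreated, 6682 with the STING agonist, 5498 with the LTβR agonist and 3722 with the combination. The next cluster in the untreated library, C1q macrophage-like cluster 5, held 63.5 CPM. Cluster 16 supplied 97.0, 93.6, 80.2 and 84.4% of all Retnla UMIs in mononuclear phagocytes of the 4 libraries in the same order. Retnla was detected in 25 of 78, 9 of 18, 101 of 171 and 118 of 262 cluster 16 cells. It was thus not detected in every cell even there, though a cell without a UMI can still express the gene. A single cell gave 21.4% of these UMIs in the untreated library, 28.1% with the STING agonist, and at most 7.90% in the other 2.

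The size of cluster 16 differed between libraries. It held 78 of 4659 untreated mononuclear phagocytes (1.67%, exact 95% interval 1.33 to 2.09), 18 of 6016 with the STING agonist (0.299%, 0.177 to 0.472), 171 of 8071 with the LTβR agonist (2.12%, 1.82 to 2.46) and 262 of 9147 with the combination (2.86%, 2.53 to 3.23). The STING agonist share lay below the other 3 intervals and the combination share above them. The 18 STING agonist cells were deep, with a median of 11343.5 UMIs against 2861.5 to 7367.0 in the other libraries, and the part of depth in these values was not tested. None of 9 T cell and 9 B cell markers had a UMI in those 18 cells, and in the other libraries the lists summed to at most 6.66 and 31.4 CPM. The make-up of cluster 16 was unlike between libraries. The 9 C1q macrophage markers summed to 7605, 3440, 3770 and 4771 CPM, and 8 classical monocyte markers to 1389, 215, 836 and 1044 CPM, with Ly6c2 and Hp among those at 0 in the STING agonist library. The 10 neutrophil markers summed to 140, 248.5, 143 and 529 CPM, and 8 type 2 dendritic cell markers to 254, 175, 480 and 418 CPM. The part of these lists in the Retnla and Ear2 levels was not tested. Of 5 eosinophil markers, Prg2, Epx and Il5ra had no UMI in cluster 16 of any library, Siglecf had UMIs in 3 libraries and Ccr3 in the combination, and the list summed to 1.51, 0, 1.76 and 4.76 CPM.

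Ear2 peaked in the same cluster but followed another order within it. Its level there was 215 CPM untreated (interval 181 to 254), 983 with the STING agonist (842 to 1140), 796 with the LTβR agonist (745 to 850) and 555 with the combination (510 to 601). The untreated library was the lowest of the 4, and its interval did not meet the others. Ear2 was found in 11.5% of untreated cluster 16 cells (9 cells, 1 of which gave 20.98% of the UMIs) and in 61.1, 64.9 and 40.5% of those in the 3 treated libraries. With every cell thinned to 1000 UMIs the 95% interval of the share was 2.99 to 16.6% untreated, 24.7 to 75.3% with the STING agonist, 31.3 to 46.7% with the LTβR agonist and 19.5 to 31.2% with the combination. Ear2 was less confined than Retnla, because cluster 16 supplied only 28.7 to 51.3% of its UMIs. Among the clusters that followed were type 2 dendritic cells and a monocyte-like cluster, with 15.9 to 116 CPM in cDC2-like cluster 6 and 29.4 to 76.2 CPM in monocyte-like cluster 9.

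**Figure D1:**
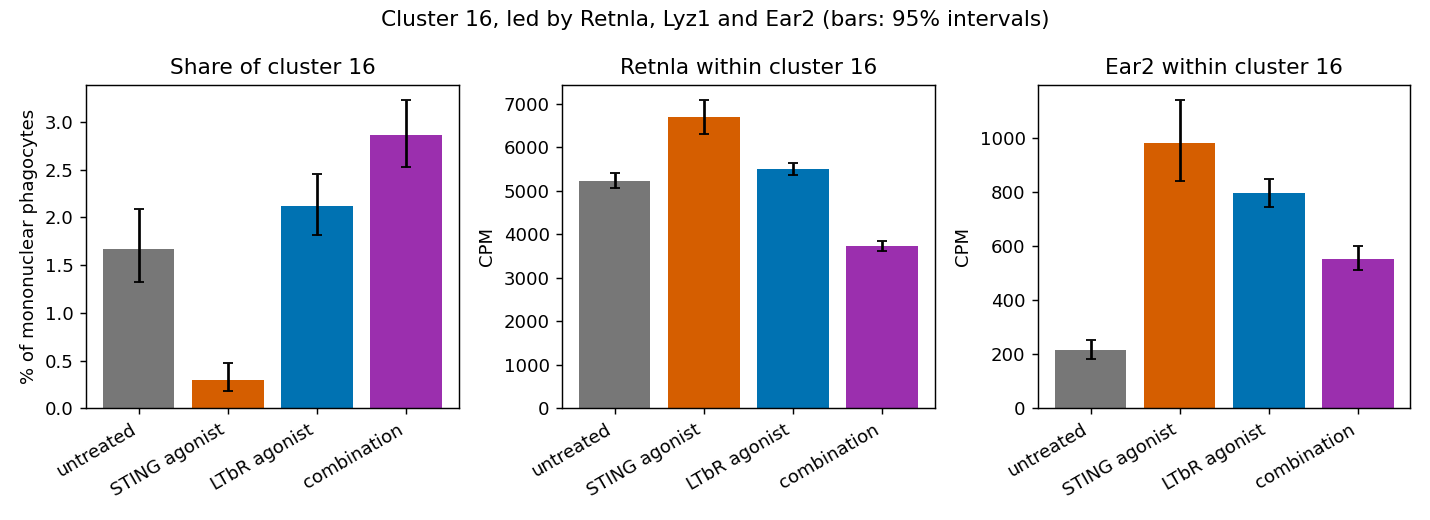
Bars show, for each library, the share of cluster 16 among mononuclear phagocytes (left, percent), and the Retnla (middle) and Ear2 (right) levels inside the cluster in CPM, with exact 95% intervals of counting error. The STING agonist library has the smallest share, 0.299%, and its Retnla level within the cluster, 6682 CPM, rests on 18 cells, 1 of which gave 28.1% of the UMIs.

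The receptor genes were unequal within cluster 16. Mrc1 held 1494, 1011, 1393 and 1370 CPM there in the untreated, STING agonist, LTβR agonist and combination libraries. Folr2 held 93.3, 11.3, 5.28 and 18.1 CPM, and Lyve1 24.1, 0, 0 and 14.3 CPM. For Folr2 the untreated library stood above the other 3.

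The mannose receptor gene Mrc1, which encodes an endocytic lectin for glycoproteins, was highest in C1q macrophage-like cluster 5 in every library. The level there was 3405, 3819, 4281 and 2956 CPM in the untreated, STING agonist, LTβR agonist and combination libraries. Cluster 5 was led by Cbr2, Igf1, Ccl8 and Gas6, genes familiar from resident tissue macrophages. Cluster 7, led by Zdhhc14 and Cadm1, held 1351 to 1673 CPM and cluster 16 held 1011 to 1494 CPM, and these neighbours overlapped in the combination library. C1q macrophage-like cluster 1 (Ch25h, Ccl12, Vcam1) held 985 to 1090 CPM, and Mrc1 was found in 82.8 to 90.3% of its cells.

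The other receptors of the resident type shared that peak. Cd163, the haptoglobin-hemoglobin receptor, stood at 59.7, 72.04, 136 and 72.4 CPM in cluster 5, and no other cluster of at least 50 cells exceeded 14.96 CPM. Stab1 (stabilin-1, which clears matrix proteins and lipoproteins) measured 539, 762, 609 and 398 CPM there. Folr2, the folate receptor β gene, measured 85.4, 67.8, 130 and 103 CPM, although in the untreated library its level in cluster 16, 93.3 CPM, overlapped that of cluster 5. Lyve1, the hyaluronan receptor, had few UMIs anywhere, with 31.7, 22.2, 36.7 and 49.4 CPM in cluster 5 and a UMI in at most 6.43% of its cells. Its untreated level in cluster 16, 24.1 CPM, overlapped that of cluster 5 as well.

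Cluster 5 itself was unequally represented. It made up 5.71, 3.67, 9.14 and 3.74% of mononuclear phagocytes in the untreated, STING agonist, LTβR agonist and combination libraries, the largest share being that of the LTβR agonist. It gave 36.3% of Mrc1 UMIs and 81.0% of Cd163 UMIs in the LTβR agonist library, against 16.1 and 69.3% in the untreated one. For Folr2 it gave 60.8% against 24.6%.

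Msr1, the class A macrophage scavenger receptor gene, had a different distribution from the rest. It was broad among macrophages and monocytes, being found in 75.1, 78.3, 69.3 and 53.5% of them, or in 37.3, 40.95, 36.97 and 29.99% when each cell was thinned to 1000 UMIs. Cluster 2, led by Tnf and Clec5a (838, 820, 902 and 689 CPM) and monocyte-like cluster 11, led by Slpi and Timp1 (807, 788, 886 and 879 CPM), stood at or near the top. Their intervals overlapped in the first 3 libraries, and with the STING agonist clusters 14 (811 CPM) and 10 (794 CPM) lay between them. In the combination, cluster 11 was above cluster 2. Cluster 5 held 295 to 379 CPM and cluster 16 between 33.9 and 236 CPM. Type 2 dendritic cells held 32.7 to 45.1 CPM, against 10.5 to 30.6 CPM in T cells, which should lack the gene.

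Chil3, encoding the chitinase-like protein Ym1, was highest in 2 monocyte-like clusters. Cluster 9, led by Ace, Adgre4 and Hp, passed 5 of 8 markers of classical and 5 of 8 of nonclassical monocytes, and it is grouped with the classical ones here because more of those led it. Without doublet removal, cells led by Ace and Adgre4 formed a nonclassical monocyte-like cluster. Cluster 11 passed 5 of 8 classical monocyte markers and a nearly equal share, 0.6, of the Arg1 macrophage markers. In cluster 9 Chil3 had 479, 468, 662 and 653 CPM in the untreated, STING agonist, LTβR agonist and combination libraries, followed by cluster 11 with 264, 360, 452 and 504 CPM. C1q macrophage-like cells as a whole had 4.60, 3.89, 9.30 and 11.5 CPM. On the log2 scale the C1q macrophage-like level minus the level of monocyte-like clusters 9 and 11 was between -6.63 and -5.65 for Chil3. The same difference was between 2.26 and 3.65 for Mrc1, between 1.53 and 2.48 for Stab1, and between -0.52 and 0.23 for Msr1. Ear2 lay on the monocyte side with -1.70, -4.10 and -0.82 in the first 3 libraries and at 0.07 (-0.37 to 0.56) with the combination.

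**Figure D2:**
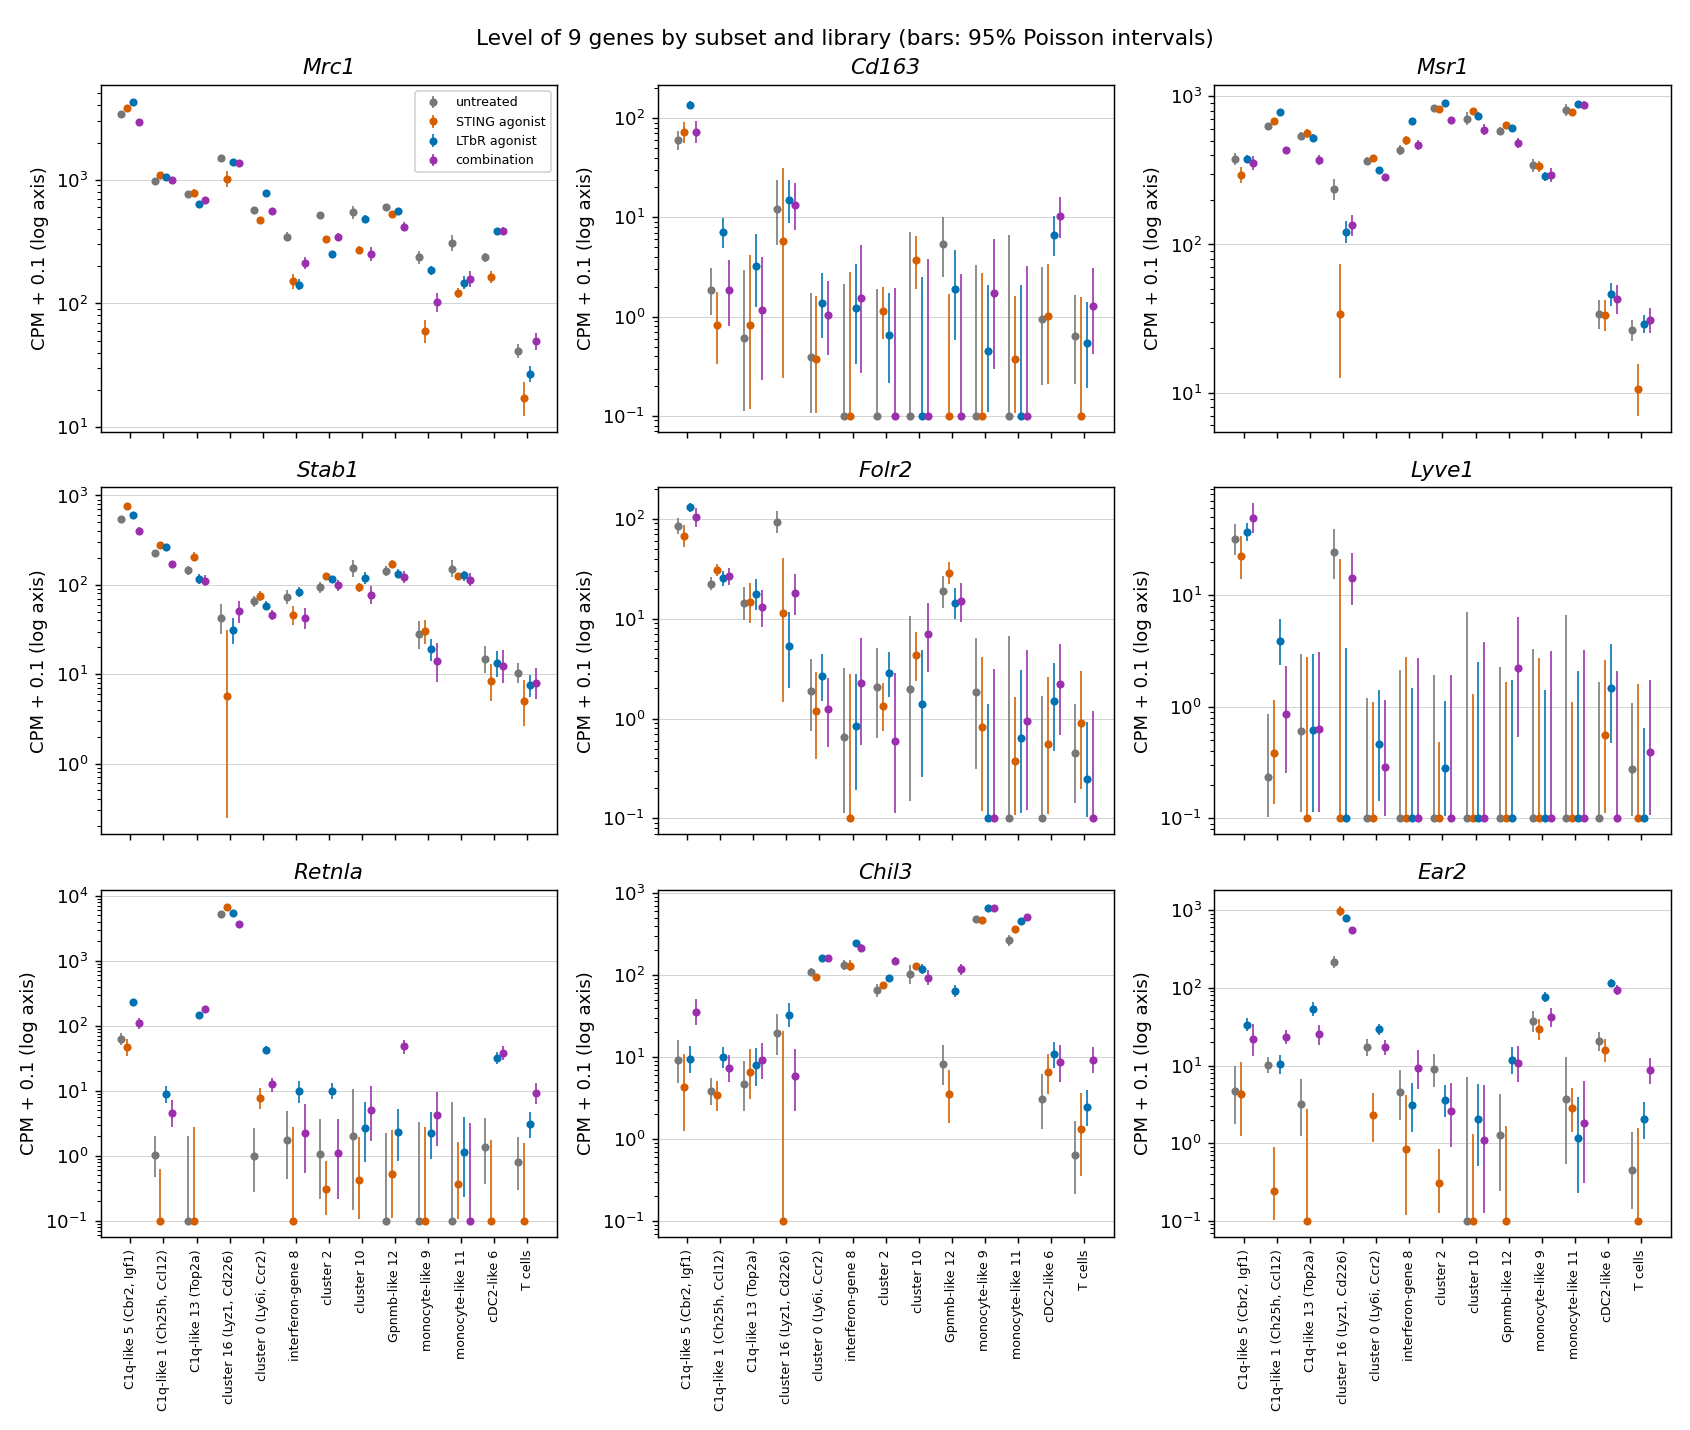
Each panel plots 1 gene as CPM + 0.1 on a log axis across 12 mononuclear phagocyte clusters and T cells, with 1 point per library and 95% Poisson intervals. Mrc1, Cd163, Stab1, Folr2 and Lyve1 are high in cluster 5, Retnla and Ear2 in cluster 16, Chil3 in the monocyte-like clusters, and Msr1 is spread over macrophages and monocytes.

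Across the 73 sums of a cluster in a library with at least 50 cells, these distributions also showed in pairwise correlations of log2(CPM + 10). The points share libraries and depth, so the coefficients describe likeness and carry no p. Cd163 and Lyve1 gave r = 0.88, Folr2 and Lyve1 0.80, Mrc1 and Stab1 0.81, and Msr1 and Stab1 0.80. Retnla and Ear2 gave 0.74. With log2(CPM + 1) the value was 0.75 for Cd163 with Lyve1 and 0.63 for Retnla with Ear2. Chil3 was near 0 with Ear2 and at -0.36 with Folr2, while its highest value with another of the genes was 0.46, with Msr1.

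Among 9847 genes ranked by the same measure, those most like Lyve1 were Cbr2 (r = 0.93), Cd163 and Slco2b1. Cbr2 and Slco2b1 were also among the 3 nearest to Cd163, and Cbr2 and Gas6 were among those nearest to Folr2. For Stab1 the nearest were Maf (0.92), Abcc3 and Ms4a7, and for Mrc1 they were Wls (0.90), Rab11fip5 and Rab3il1. Fcgr2b (0.94) and Slc11a1 were among the genes closest to Msr1. Chil3 was closest to Hp (0.88), Rhou and Igfbp6, Retnla to Clec4b1 (0.80), Alox5 and Lpl, and Ear2 to Gfra2 (0.75), Retnla and Cd226.

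**Figure D3:**
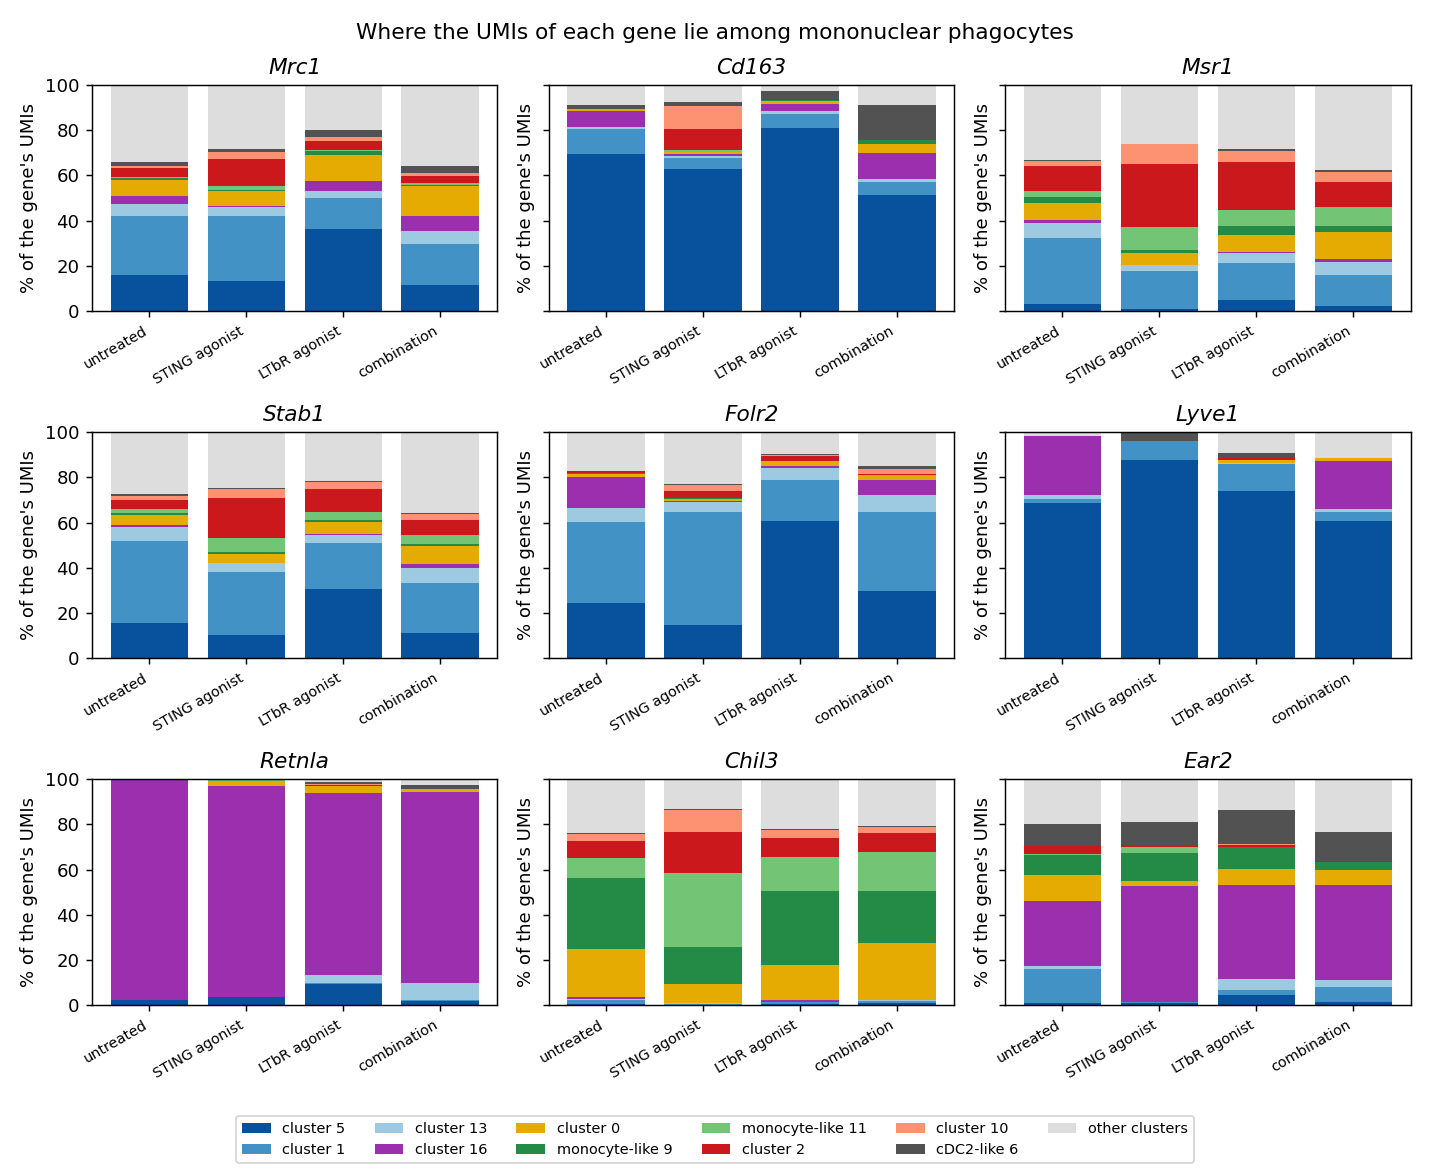
Stacked bars give the percent of each gene's UMIs among mononuclear phagocytes that came from each cluster, by library. Cluster 16 holds 80.2 to 97.0% of Retnla UMIs, cluster 5 holds 51.2 to 81.0% of Cd163 UMIs, and the UMIs of Msr1 and Chil3 are divided over many clusters.

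Treatment groups were compared in the summed macrophages and monocytes. A gene was read as changed in this description where it had at least 200 UMIs over both libraries and a ratio of at least 2-fold. With 1 library per group, fewer cells of a subset and less mRNA per cell were separated only as far as the clusters allow. In the STING agonist library Retnla was at 29.98 CPM against 126 untreated, a log2 ratio of -2.08 (interval -2.17 to -1.98), and Ear2 at 7.02 against 15.2 CPM (-1.12, -1.34 to -0.90). These 2 of 8 genes measured were at least 2-fold lower, where 2.1% of all genes were. None of the 8 was 2-fold higher, where 2.41% of all genes were. Mrc1 was at 623 against 969 CPM (-0.64) and Folr2 at 10.2 against 16.1 CPM (-0.66), both short of 2-fold. Cd163, at 2.40 against 3.96 CPM (-0.72), rested on 101 and 112 UMIs. Chil3 was at 94.6 against 60.2 CPM (0.65), Msr1 at 669 against 556 CPM (0.27), and Stab1 at 165 against 160 CPM (0.04). Lyve1, with 23 and 60 UMIs, was under the minimum. The median log2 ratio of the 8 genes was -0.65, beside -0.20 over all genes.

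The LTβR agonist library was higher for several of the genes. Ear2 measured 46.7 CPM against 15.2 untreated (log2 ratio 1.62, 1.46 to 1.77), Cd163 12.8 against 3.96 CPM (1.69, 1.397 to 2.004) and Chil3 144 against 60.2 CPM (1.26, 1.18 to 1.34). These 3 of 9 were at least 2-fold higher, where 1.23% of all genes were, and none was 2-fold lower, where 0.24% were. Retnla was at 196 CPM (0.63, 0.58 to 0.69), a ratio that ran from -0.20, with each cell named without clusters, to 5.56, without the 1% of cells with most Retnla UMIs, so its direction was not stable. Mrc1 at 903, Msr1 at 580, Stab1 at 157 and Folr2 at 16.8 CPM differed from untreated by at most 0.10 on the log2 scale. Lyve1 was at 3.82 against 2.12 CPM (0.84, 0.41 to 1.31). Without the 1% of cells with most Lyve1 UMIs the value was -0.48. Few cells carried Lyve1, so this trim can leave only the 0.5 UMI added to each sum. That value therefore gives no direction. The median log2 ratio of the 9 genes was 0.63, beside -0.05 over all genes.

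In the combination library Ear2 was at 40.0 CPM (1.39, 1.23 to 1.56 against untreated), 1 of 8 genes at least 2-fold higher where 1.34% of all genes were. No member was 2-fold lower, where 0.384% of all genes were. Chil3 at 116 CPM (0.94, 0.86 to 1.03) lay just below the 2-fold limit. Stab1 at 102 CPM (-0.65) and Msr1 at 422 CPM (-0.40) were lowest in this library, and Mrc1 at 720 CPM (-0.43) lay between the STING agonist and LTβR agonist values. Folr2 at 10.2 CPM (-0.66), Cd163 at 3.52 CPM (-0.17) and Retnla at 155 CPM (0.29) did not reach 2-fold, and Lyve1 was under the minimum. The Retnla ratio ran from -0.17 to 4.97 over the alternatives, so its direction was not stable. The median of the 8 genes was -0.28, beside -0.09 over all genes. Against the STING agonist alone, Retnla (2.37, 2.28 to 2.46) and Ear2 (2.51, 2.33 to 2.70) were 2-fold higher, 2 of 8 where 1.89% of all genes were, and none was 2-fold lower, where 1.04% were. Against the LTβR agonist alone only Cd163 passed, at 3.52 against 12.8 CPM (-1.86, -2.18 to -1.55), which is 1 of 9 where 0.182% of all genes were lower. None was higher, where 0.316% were. The 3 comparisons with untreated share that library, and those with the combination share the combination library.

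The cluster shares were then held equal by giving every library the cluster shares of the untreated one. With those shares Retnla in the STING agonist library was at 160 CPM instead of 29.98, and Ear2 at 25.9 CPM instead of 7.02. Both ratios to untreated thereby changed sign, to 0.34 and 0.77, with values that rest on the 18 STING agonist cells of cluster 16. Without cluster 16, the STING agonist ratio was -0.98 for Retnla and -1.84 for Ear2, so Ear2 was also low outside that cluster. In cluster 0, for example, Ear2 had 2.19 CPM with the STING agonist and 17.1 CPM untreated. Under the same weighting Mrc1 went from 623 to 895 CPM, and Folr2 from 10.2 to 15.8 CPM, beside untreated values of 969 and 16.1. In the LTβR agonist library the weighting left Ear2 at 41.5 CPM and Cd163 at 9.25 CPM, still more than 2-fold over untreated, and brought Chil3 to 99.4 CPM, below 2-fold. The ratio of Cd163 in the combination to the LTβR agonist went from -1.86 to -0.95 (4.77 against 9.25 CPM), short of 2-fold. In the combination against the STING agonist, neither Retnla nor Ear2 was then 2-fold higher, with Retnla at -0.52 (112 against 160 CPM) and Ear2 at 0.32 (32.3 against 25.9 CPM). Ratios to untreated short of 2-fold also turned direction, among them to 0.04 for Cd163 and -0.03 for Chil3 with the STING agonist, and to 0.27 for Cd163 with the combination.

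**Figure D4:**
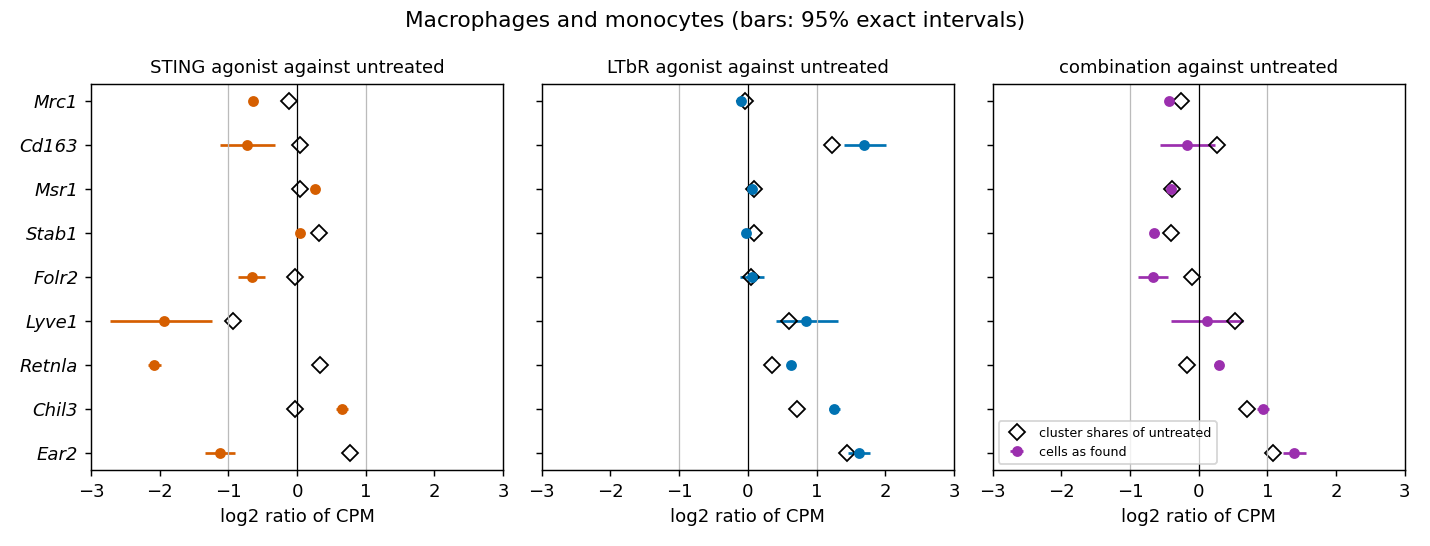
Log2 ratios of CPM to the untreated library in macrophages and monocytes for the 9 genes, 1 panel per treatment, with exact 95% intervals; open diamonds give the ratio with the cluster shares of the untreated library. The STING agonist values of Retnla and Ear2 move from -2.08 to 0.34 and from -1.12 to 0.77, while the LTβR agonist values of Cd163 and Ear2 stay above 1.

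Outside cluster 16, Retnla and Ear2 were higher in several single clusters of the libraries that received the LTβR agonist. Without cluster 16, the log2 ratio of Retnla to untreated was 3.31 with the LTβR agonist and 2.58 with the combination. In cycling C1q macrophage-like cluster 13, led by Top2a, Retnla had 0 UMIs untreated and with the STING agonist, and 148 and 180 CPM with the LTβR agonist and the combination. Ear2 in the same cluster measured 3.07, 0, 53.4 and 25.2 CPM. In cluster 0, led by Ly6i and Ccr2, Retnla was at 0.886, 7.65, 42.6 and 12.5 CPM. Retnla in T cells of the same libraries, a measure of free RNA, was 0.712, 0, 2.96 and 9.13 CPM, so the background differed too. In the combination this background was not far below the 12.5 CPM of cluster 0, and its part in that level was not tested. In cluster 5, Cd163 had 136 CPM with the LTβR agonist against 59.7 untreated (1.18, 0.84 to 1.55), and Retnla 236 against 63.5 CPM (1.89, 1.57 to 2.24). The make-up of cluster 5 differed as well, since 8 classical monocyte markers summed there to 742, 693, 371 and 816 CPM, lowest with the LTβR agonist, and their part in these ratios was not tested. Cd163 was found in 13.7% of cluster 5 cells with the LTβR agonist and in 6.77% untreated, or in 8.18% (6.21 to 10.5) and 3.42% (1.49 to 6.63) after thinning.

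Monocyte-like cluster 9 differed for Mrc1 instead. Its Mrc1 level was 236, 59.5, 185 and 102 CPM, with the STING agonist (-1.98, -2.36 to -1.63) and the combination (-1.21, -1.53 to -0.90) at least 2-fold below untreated. T cells in the same libraries held 41.3, 17.0, 26.9 and 49.5 CPM of Mrc1. The C1q macrophage markers in cluster 9 were also highest untreated, at 2220, 1683, 1609 and 1096 CPM in sum, and their part in the Mrc1 values was not tested. Chil3 in cluster 9 had log2 ratios of -0.03, 0.46 and 0.45 to untreated with the STING agonist, LTβR agonist and combination. Ear2 there was at 76.2 CPM with the LTβR agonist against 37.5 untreated (1.01, 0.54 to 1.53).

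Type 2 dendritic cells, antigen-presenting cells that often carry Mrc1 in tissues, numbered 306, 257, 435 and 453. Mrc1 was at 230, 161, 379 and 383 CPM in the untreated, STING agonist, LTβR agonist and combination libraries, and Ear2 at 19.9, 15.7, 114 and 93.1 CPM. Both libraries that received the LTβR agonist were higher than the other 2 for both genes. The 9 C1q macrophage markers in cDC2-like cluster 6 summed to 1225, 724, 1341 and 1658 CPM, the same order of libraries as for Mrc1, and their part in these values was not tested. Only Ear2 passed 2-fold over untreated, with log2 ratios of 2.50 (2.08 to 2.98) and 2.21 (1.75 to 2.71). This was 1 of 3 genes measured with the LTβR agonist, where 0.706% of all genes were 2-fold higher, and 1 of 2 with the combination, where 0.9% were. In the combination against the STING agonist alone, both genes measured passed, Mrc1 with 1.25 (1.07 to 1.44) and Ear2 with 2.55 (2.04 to 3.14), where 0.86% of all genes were 2-fold higher. Retnla had 3 and 0 UMIs in the first pair of libraries and 94 and 73 in the second, too few over both libraries for the minimum. Msr1 in these cells, at 32.7 to 45.1 CPM against 422 to 669 in macrophages and monocytes, had log2 ratios to untreated of at most 0.46.

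Companion lists give the wider setting in macrophages and monocytes. Of 16 genes of alternative activation, 14 or 15 had 200 UMIs. Compared with untreated, 3 were at least 2-fold higher and none lower with the LTβR agonist (median log2 ratio 0.84, beside -0.05 over all genes), 4 and none with the combination (0.60, beside -0.09), and 2 higher and 2 lower with the STING agonist (0.21, beside -0.20). The shares of all genes were 1.23% higher with the LTβR agonist, 1.34% higher with the combination, and 2.41% higher and 2.1% lower with the STING agonist. In the combination 7 of 15 were higher and 1 lower than with the STING agonist alone, where 1.89% and 1.04% of all genes were, and 1 was higher and 1 lower than with the LTβR agonist alone, where 0.316% and 0.182% were. Cd209a, a lectin, stood at 1.70, 1.61, 8.43 and 6.03 CPM, and the transcription factor gene Irf4 at 5.97, 3.87, 12.3 and 12.9 CPM. The chemokine gene Ccl17 was at 27.0, 7.66, 51.6 and 80.6 CPM and Ccl22 at 3.07, 4.198, 5.86 and 16.6 CPM. Ccl24, an eosinophil attractant, was high with the LTβR agonist alone, at 124 CPM against 41.8 untreated and 51.3 with the combination. The lectin gene Mgl2 was lower with the STING agonist, 74.04 against 170 CPM, while Il1rn and Il10, an antagonist of IL-1 and an inhibitory cytokine, were higher there, at 944 against 381 CPM and 53.9 against 17.1 CPM.

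Of 15 resident macrophage genes, 8 or 9 had 200 UMIs. With the LTβR agonist, Hpgd (15.5 against 4.77 CPM) and Cbr2 (25.4 against 10.6 CPM) were 2-fold higher, 2 of 9 where 1.23% of all genes were. With the STING agonist Cbr2 was lower (4.43 CPM), 1 of 8 where 2.1% of all genes were. With the combination none of 8 was 2-fold higher or lower than untreated, where 1.34% and 0.384% of all genes were. Against the LTβR agonist alone 3 of 9 were 2-fold lower in the combination, where 0.182% of all genes were, and against the STING agonist alone 2 of 8 were higher, where 1.89% were. The median log2 ratios to untreated of the list were -0.49, 0.58 and -0.35 for the STING agonist, LTβR agonist and combination, beside -0.20, -0.05 and -0.09 over all genes. Of 11 other scavenger receptor genes with enough UMIs, only Olr1, the receptor for oxidized low-density lipoprotein, passed 2-fold against untreated. It was at 268 CPM with the STING agonist against 126 untreated, where 2.41% of all genes were higher and 2.1% lower. No gene of this list passed against untreated with the LTβR agonist, where 1.23% of all genes were higher and 0.24% lower. None passed with the combination either, where 1.34% were higher and 0.384% lower. With 11 genes such counts do not set the list apart. In the combination 1 of the 11 was higher than with the STING agonist alone, where 1.89% of all genes were. None passed against the LTβR agonist alone, where 0.316% were higher and 0.182% lower. Among relatives of the 9 genes, only Cd44 had enough UMIs, with 826, 1678, 1415 and 1353 CPM, and it passed 2-fold with the STING agonist (log2 ratio 1.02). A list of 7 genes, with IL-4, IL-13, their receptors, Csf1 and Csf2, had 4 with enough UMIs in macrophages and monocytes. None of these 4 passed 2-fold in any comparison. The list was not measured in other cell types, so it does not describe the supply of IL-4 or IL-13.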

How the data were processed

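The 4 UMI count matrices, deposited as 10x Genomics output of CD45+ cells sorted from KPC tumors, were analysed. The submitters' processing notes name Cell Ranger 7.1.0 and mm10, and the file headers name Cell Ranger 8.0.1. The deposited counts are raw UMIs per gene and cell. After the study's methods, cells with 300 to 5000 genes and at most 6% mitochondrial UMIs were kept. Scrublet (scanpy 1.11.5) marked at most 1 cell per library on its automatic threshold, so the highest scores at 0.4% per 1000 cells were removed. Cells were clustered (2000 variable genes, 30 components, 20 neighbours, leidenalg 0.10.2, resolution 1) without the 9 genes, immunoglobulin and T cell receptor genes. Clusters were named where at least 3 fixed markers reached 2-fold and 10% detection. Both cut-offs were chosen with the data in view. Mononuclear phagocytes gave 22 clusters, of which 2 led by neutrophil or T cell genes were left out.

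UMIs were summed per cluster and library. CPM have exact 95% Poisson intervals, shares Clopper-Pearson intervals, and log2 ratios (0.5 UMI added) exact binomial intervals. PCR and capture error are not covered. The members and lists were chosen with earlier results of these data known. Named companion genes were the up to 4 largest ratios past 2-fold per list and comparison with untreated whose interval left out 0, and each gene's 3 nearest patterns, of which 1 is not reported here. Calls were checked on simulated sums. Alternatives changed filters, scaling, clustering, naming, background and cluster shares. Gene sequences came from RefSeq, and transcripts from GENCODE.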

Additional observations from a re-analysis of the deposited data

Results flagged for a closer look

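In both libraries that received the LTβR agonist, Mrc1 was higher than untreated in type 2 dendritic cells and not in macrophages and monocytes. With the LTβR agonist alone the macrophage and monocyte log2 ratio was only -0.10, and it ranged from -0.16 to 0.08 over the alternatives, so its sign was not stable. The log2 ratio in dendritic cells minus that in macrophages and monocytes was 0.82 for the LTβR agonist and 1.16 for the combination, with 1 library per group, and the difference was not tested. C1q macrophage markers in cDC2-like cluster 6 were also highest in these libraries, at 1341 and 1658 CPM against 1225 untreated and 724 with the STING agonist, and their part in the Mrc1 values was not tested.

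Mrc1, Msr1 and Chil3 had UMIs in neutrophils, which no comparison used, above the interval found in T cells of each library. Mrc1 measured 81.3, 77.4, 60.2 and 105 CPM in neutrophils of the untreated, STING agonist, LTβR agonist and combination libraries. Msr1 measured 84.1, 41.9, 73.98 and 55.3 CPM in the same order. Chil3 measured 107, 22.8, 87.3 and 106 CPM, and was found in 3.77, 2.05, 5.83 and 2.91% of these cells. The 9 C1q macrophage markers were also present in these neutrophils, at 1106, 598, 782 and 750 CPM in sum, and their part in the Mrc1 and Msr1 UMIs was not tested.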

How the results depend on the processing

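The calls rest on 1 library per group, and the low detection of Cd163, Lyve1 and Retnla means that few cells carry their values. No paired analysis was possible because each group has 1 library and no test was run. Of the log2 ratios of single genes, 389 stayed within the counting interval of the main value under an alternative, 148 moved outside it and 3 changed sign after passing 2-fold. Of 27 correlations with the nearest genes, 14 moved with log2(CPM + 1), among them Cbr2 with Lyve1 from 0.93 to 0.78 and Clec4b1 with Retnla from 0.80 to 0.66.

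Giving every library the cluster shares of the untreated one left 0 genes 2-fold lower with the STING agonist, with Retnla at 0.34 and Ear2 at 0.77, and 0 genes higher in the combination than with the STING agonist, with Retnla at -0.52, which by its construction removes the effect of cluster sizes. It also left 0 genes lower in the combination than with the LTβR agonist. Median-of-ratios scaling gave 1 gene lower with the STING agonist and 2 higher with the combination. Naming each cell without clusters gave 2 higher with the combination, and turned the untreated C1q-to-monocyte difference of Retnla to -2.04 (the cause was not tested). Leaving out the 1% of cells with most UMIs of a gene gave 2 higher and 1 lower with the combination, and 2 lower in the combination than with the LTβR agonist (the cause was not tested). It moved the log2 ratio of Retnla to untreated to -4.97, 5.56 and 4.97 for the STING agonist, LTβR agonist and combination, and that of Cd163 with the LTβR agonist to 6.71. Few cells carry Retnla, Cd163 and Lyve1, so this trim can remove nearly all UMIs of these genes from a library. Their trimmed ratios then rest on few UMIs or on the 0.5 UMI added, and give no size of a change. Alternatives added after seeing the data gave, without cluster 16, 1 gene lower with the STING agonist, 2 higher with the combination and 2 lower in the combination than with the LTβR agonist, and with dendritic cells included, 2 higher with the combination.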
